A study of Mus musculus with 10 samples.

Results

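The comparison covers 3 left ventricle libraries of a mouse line with a high level of a constitutively active Nrf2 transgene (TGH) and 3 libraries of a line with a low level (TGL). It held every gene of the deposited count table that passed a low-count filter, 14511 of 21222 genes, and 6 of the 10 libraries of the series. All mice were male, of strain C57BL/6J and 6 months old, and the genotypes were labelled CaNrf2-High for TGH and CaNrf2-Low for TGL. The other 4 libraries came from non-transgenic mice (NTG) of the same strain, sex and age, and their values stand beside TGL and TGH as background levels. The labels give neither the promoter of the transgene nor its copy number. Published descriptions of cardiac caNrf2 mice place it under the alpha-myosin heavy chain promoter, which is active in heart muscle cells. TGL and TGH are different transgenic lines, so the level of the transgene and any other difference between the lines cannot be told apart. No label says that each library of a group came from its own mouse, so p-values measure the spread between these libraries.

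Nrf2, the product of Nfe2l2, is a transcription factor that the adaptor protein Keap1 normally marks for destruction. When it is stable it pairs with small Maf proteins at antioxidant response elements, and it is known for driving genes that make glutathione, reduce thioredoxin and quinones, supply NADPH and handle haem and iron. Constitutively active forms lack the region that Keap1 binds. In the heart, Nrf2 is studied for protection from oxidants and, when highly active, for reductive stress.

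Total counts were 7076319 to 7209819 in TGL, 8168959 to 10896535 in TGH and 7893108 to 10092841 in NTG. Values below are CPM, read counts scaled to a common library size after TMM adjustment (factors 0.94 to 1.08), and 3 counts, the limit that a count of 0 allows, stood at 0.26 to 0.436 CPM. These limits cover counting error only. Within a group, log2 CPM values of any 2 libraries had an r of 0.972 to 0.990 over genes. Their counts differed by 2.91 to 18.02 times counting noise (chi-square per degree of freedom), so no libraries were counted as 1. Among the 6 transgenic libraries, the leading principal component held 45.1% of the variance and separated TGL from TGH. The next, with 24.7%, placed TGL 2 at -28.3 and TGH 2 at -25.0 and the other 4 libraries at 1.14 to 23.8. NTG 2 differed most from the other libraries of its group.

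The ventricles of the high line held more RNA of some glutathione, thioredoxin, quinone and haem genes than those of the low line, among them Gclm, Txnrd1, Ptgr1 and Blvrb. They held less RNA of some contractile, electrical and mitochondrial genes, among them Tnni3, Scn4a and Cox6a2. In each of these lists most tested members were not called. Of 14511 genes tested, 1399 were called (9.64%), that is, the quasi-likelihood test of edgeR gave them a p under 0.05 after Benjamini-Hochberg adjustment over all tested genes. In TGH 803 genes rose (5.53% of the genes tested) and 596 fell (4.11%). The median log2 fold change, given throughout as TGH minus TGL, was 0.77 among the genes that rose, -0.66 among those that fell and -0.00092 over all genes tested. A change of at least 2-fold was seen in 289 of the genes that rose and 167 of those that fell, and one of at least 4-fold in 41 and 49. At least 1.5-fold was reached by 860 called genes (5.93%). Every TGH library was beyond every TGL library in 4120 genes (28.4%), of which 1389 were called. The number of called genes depended on single libraries: it was 730 without TGH 1, 803 without TGL 1 and 1599 without NTG 2, which enters through the shared filter, scaling and estimate of the spread.

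**Figure D1:**
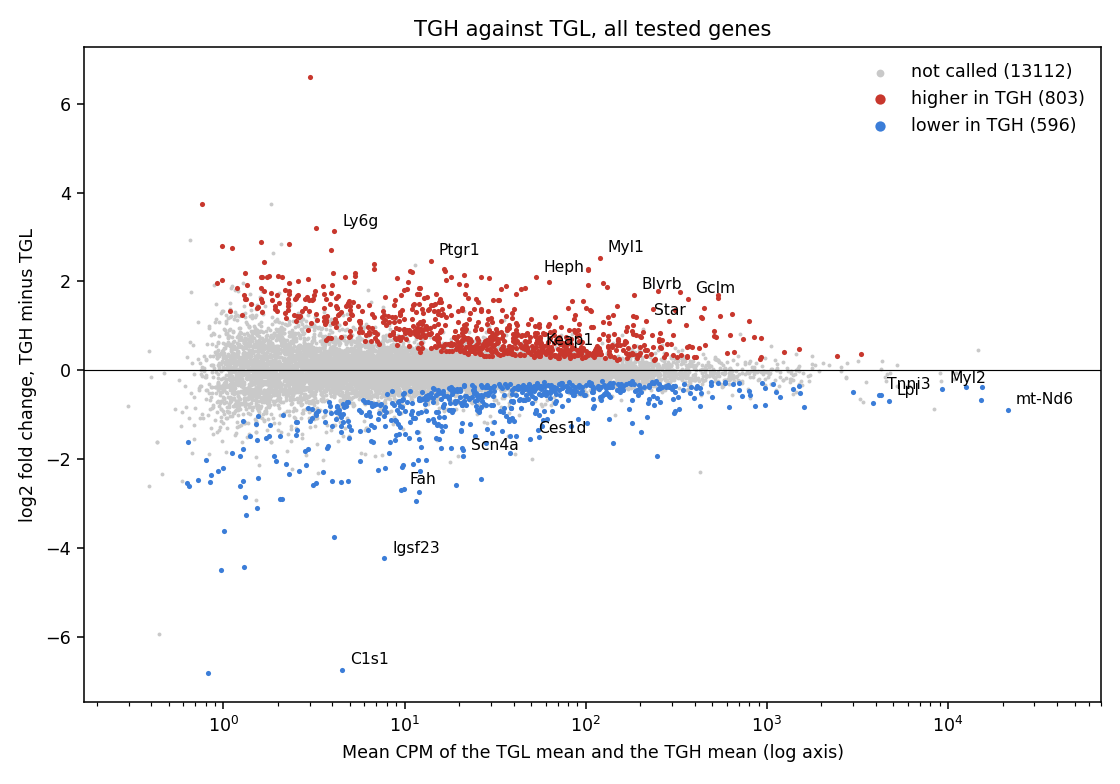
Log2 fold change of TGH minus TGL (vertical axis) against the mean of the TGL and TGH mean CPM (horizontal log axis) for the 14511 genes tested. Each point is a gene, red for the 803 that rose in TGH, blue for the 596 that fell and grey for the rest, with some of the genes described in the text named.

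Nfe2l2 itself (GRCm38, ENSMUSG00000015839, chromosome 2, 75675513 to 75704641) stood at 156, 129 and 182 CPM in TGL, against 254, 182 and 244 CPM in TGH, and the highest TGL library lay at about the level of the lowest TGH library. NTG stood at 164, 145, 88.3 and 122 CPM. The log2 fold change was 0.54 ± 0.21 (SE), with an edgeR adjusted p of 0.129 that passed without NTG 2 (0.0489). Counts of this gene do not check the labels, because the labels do not say which species' sequence the transgene carries or how much of the message. Keap1 (ENSMUSG00000003308, chromosome 9, 21229730 to 21239361), which keeps Nrf2 in check, rose 1.36-fold, from 45.8, 46.8 and 45.8 CPM to 59.4, 61.8 and 66.8 CPM (edgeR adjusted p = 0.00368). The lowest TGH library lay above the highest TGL library, and TGL lay just above the NTG range of 41.3 to 43.6 CPM. Mafg, a small Maf partner of Nrf2, rose 1.83-fold, from a range of 57.1 to 64.7 CPM to one of 95.8 to 137 CPM (edgeR adjusted p = 0.00338). Nfe2l1, the related factor that drives proteasome genes, dropped by 0.28 in log2 units (edgeR adjusted p = 0.0327), which no longer passed without NTG 0 (0.0506), TGL 0 (0.0644), TGL 1 (0.0772), TGL 2 (0.106), TGH 1 (0.0691) or TGH 2 (0.0863). The other 13 of the 16 tested regulators were not called, among them Bach1, a repressor at the same elements (0.47, edgeR adjusted p = 0.161). With 1 library left out, 2 (without NTG 0, any TGL library, TGH 1 or TGH 2) to 4 of the regulators were called. Over all tested genes 5.53% rose and 4.11% fell.

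To show promoter sequence of genes that rose, the core of the antioxidant response element, written TGACNNNGC or, on the opposite strand, GCNNNGTCA, was searched in RefSeq promoters of GRCm38.p6 (250 bases before to 50 after each start). It was present in 12.4% of 32851 promoters. By symbol, 9807 of the tested genes matched a promoter, and 17.2% of them had the core in at least 1. The share was 19.5% for 569 genes that rose and 16.3% for 404 that fell, both near that of all tested genes. The letters can overlap the AP-1 motif TGACTCA, as they do in Hfe, and a match is a description, not a binding site. The 6 windows below carry the core in capitals with the bases around it, 5′ to 3′ on the strand of the gene, and were chosen because these genes rose and belong to the iron, glutathione, thioredoxin, NAD and regulator lists.
Hfe (chr13:23710893-23710941, minus strand): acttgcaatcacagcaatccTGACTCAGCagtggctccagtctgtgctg
Gsta3 (chr1:21240444-21240492, plus strand): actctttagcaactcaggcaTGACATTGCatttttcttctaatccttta
Gclm (chr3:122245403-122245451, plus strand): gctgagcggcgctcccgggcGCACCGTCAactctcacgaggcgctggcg
Txnrd1 (chr10:82859094-82859142, plus strand): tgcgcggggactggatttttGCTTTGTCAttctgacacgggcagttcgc
Nmrk2 (chr10:81202040-81202088, minus strand): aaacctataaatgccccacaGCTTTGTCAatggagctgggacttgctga
Mafg (chr11:120633741-120633789, minus strand): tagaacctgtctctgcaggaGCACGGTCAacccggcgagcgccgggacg
The core of Hfe and Gsta3 reads in the direction of the gene, and that of the other 4 in the opposite direction. That of Txnrd1 and Nmrk2 has the same 9 letters. The windows of Ptgr1, Alad, Blvrb, Taldo1, Esd, Gss, Nqo1 and Fth1, which also rose, did not hold these letters.

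Several genes that make and recycle glutathione rose in TGH. Gclm (ENSMUSG00000028124, chromosome 3, 122245557 to 122270732), the modifier subunit of glutamate-cysteine ligase, which commits cysteine to glutathione, stood at 182, 202 and 160.0 CPM in TGL, against 509, 553 and 582 CPM in TGH. The gap between the groups was wider than the whole spread of either, and NTG stood at 27 to 43.1 CPM. Gclm rose 3.02-fold (log2 fold change 1.60 ± 0.16 (SE), edgeR adjusted p = 0.00014). Gss, which completes the tripeptide, went from 16.9, 21.5 and 20.1 CPM to 38.3, 40.7 and 45.8 CPM (2.13-fold, edgeR adjusted p = 0.000264), with 10.3% of its 50-base words also found in other annotated genes. Gsr, which reduces oxidised glutathione, went from 50.3, 43 and 30.8 CPM to 88.2, 99.2 and 95.9 CPM (2.28-fold, edgeR adjusted p = 0.000559). The surface enzyme Ggt5, which cleaves glutathione outside the cell, went from a range of 11.8 to 14.6 CPM to one of 34.1 to 41 CPM (2.89-fold). None of these 4 genes lost its call when any 1 library was left out, and in each the TGL libraries lay between NTG and TGH. Gclc, the catalytic partner of Gclm, differed less: it stood at 22.7, 21.2 and 23.6 CPM in TGL, within the NTG range of 16.7 to 24.9 CPM, and at 26.9, 35.4 and 37.3 CPM in TGH. Its 1.48-fold rise (edgeR adjusted p = 0.0423) was lost without NTG 1 (0.0554), TGL 0 (0.101), TGL 1 (0.134), TGL 2 (0.0766), TGH 1 (0.144) or TGH 2 (0.128). Of 13 tested genes of this list 5 rose and 0 fell (median log2 fold change 0.15).

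**Figure D2:**
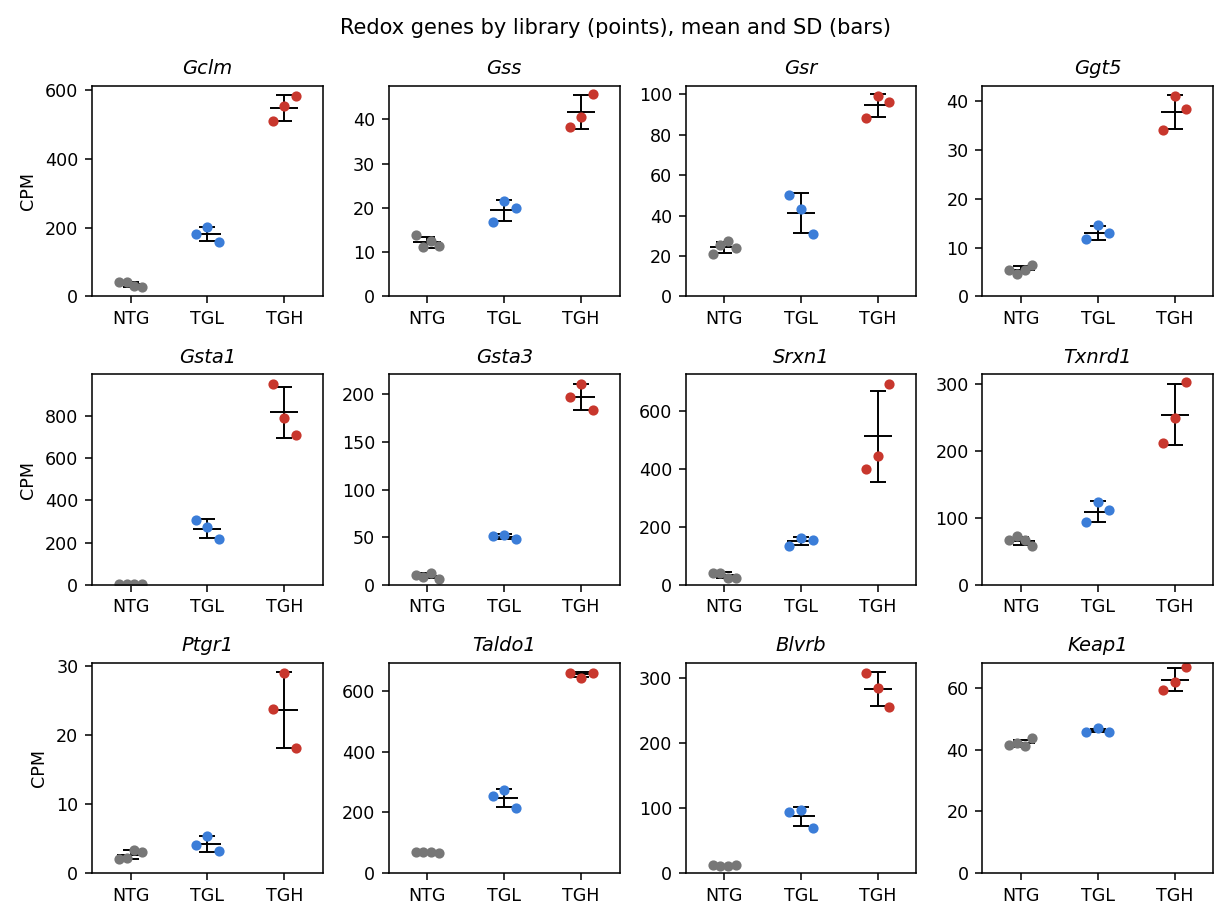
CPM of 12 glutathione, thioredoxin, quinone, NADPH, haem and regulator genes in each library (points) of NTG, TGL and TGH, with the group mean and SD (bars). In each of the 12 panels every TGH library lies above every TGL library, and in Gclm the 3 groups stand at 35.5 ± 7.91, 181 ± 21.1 and 548 ± 36.7 CPM (mean ± SD, n = 4, 3 and 3).

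Glutathione S-transferases couple glutathione to electrophiles, and members of their alpha and mu classes rose. Gsta3 (ENSMUSG00000025934, chromosome 1, 21240589 to 21265661) stood at 50.9, 52.8 and 47.7 CPM in TGL, against 198, 211 and 184 CPM in TGH, against 6.41 to 12.2 CPM in NTG. The spread within either line was under 30 CPM, and the rise was 3.91-fold (edgeR adjusted p = 6.07e-05). Gsta1 went from 306, 274 and 217 CPM to 948, 789 and 708 CPM and Gsta2 from 121, 125 and 91.6 CPM to 448, 399.8 and 314 CPM, 3.07-fold and 3.44-fold (edgeR adjusted p = 0.000114 and 9.76e-05). These genes shared 90.5% and 49.8% of their words with other genes, so how reads were divided between them is uncertain, while Gsta3 shared 0.273%. Gstk1, the kappa class enzyme of mitochondria and peroxisomes, went the other way, from 53.4, 44.5 and 51.9 CPM to 29.3, 25.9 and 28.2 CPM. It dropped by 0.85 in log2 units (edgeR adjusted p = 0.000305), and TGL already lay below the NTG range of 75 to 84.5 CPM. Of 23 tested transferases 9 rose and 1 fell (median 0.27), and 9 or 10 were called with any 1 library left out.

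Thioredoxin reductase and 5 of the other 17 tested genes of its system rose as well. Txnrd1 (ENSMUSG00000020250, chromosome 10, 82833951 to 82897712), which keeps thioredoxin reduced, stood at 93.9, 124 and 112 CPM in TGL, against 212, 249 and 303 CPM in TGH. The groups were apart by more than 80 CPM, and the rise was 2.32-fold (edgeR adjusted p = 0.000293). Srxn1, sulfiredoxin, which repairs overoxidised peroxiredoxins, went from 135, 161 and 153 CPM to 399, 442 and 692 CPM (3.41-fold, edgeR adjusted p = 0.000864), with TGH 2 above the other TGH libraries. Thioredoxin itself (Txn1) rose 1.5-fold, from a range of 57 to 66.3 CPM to one of 89.8 to 98.6 CPM (edgeR adjusted p = 0.00206). No gene of the thioredoxin and peroxiredoxin list fell, 12 were not called, and the median over all 18 was 0.24. With 1 library left out the list had 3 (without TGL 1 or TGL 2) to 7 called members. Among 13 genes that remove superoxide and peroxide only Selenow, a small selenoprotein, and the glutathione peroxidase Gpx1 were called, both higher in TGH. Selenow rose 1.48-fold (edgeR adjusted p = 0.00172). The Gpx1 rise of 1.29-fold (edgeR adjusted p = 0.0378) was lost without NTG 0 (0.0561), TGL 0 (0.122), TGL 1 (0.134), TGH 0 (0.108) or TGH 1 (0.0881), and with the TGH and TGL libraries fitted alone (0.0634). This list had 1 (without NTG 0, TGL 0 or TGL 1) to 3 (without NTG 2 or TGH 2) called members. An unadjusted edgeR p under 0.05 was seen in 9 of the 13, and in 3505 of all 14511 tested genes. The TGH and TGL libraries did not overlap in 9 of the 13, beside 28.4% of all tested genes. Of the 13, 8 had a positive and 5 a negative log2 fold change. The superoxide dismutases Sod1 (0.11, edgeR adjusted p = 0.583) and Sod2 (-0.02, edgeR adjusted p = 0.917) and catalase (Cat, 0.24, edgeR adjusted p = 0.187) were not called.

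Enzymes that reduce quinones, carbonyls and alkenals were higher in TGH in 8 of 21 cases, and 0 were lower (median 0.22). Ptgr1 (ENSMUSG00000028378, chromosome 4, 58965439 to 58987119), which reduces prostaglandins and lipid aldehydes, stood at 4.15, 5.45 and 3.2 CPM in TGL, which overlapped the NTG range of 2.01 to 3.35 CPM, and at 23.8, 29 and 18.1 CPM in TGH. It rose 5.52-fold (log2 fold change 2.46 ± 0.24 (SE), edgeR adjusted p = 0.000138). Esd, an esterase that acts on S-formylglutathione, went from 284, 291 and 221 CPM to 590.3, 629.5 and 596 CPM (2.28-fold, edgeR adjusted p = 7.28e-05). Nqo1, the quinone reductase that is the usual marker of Nrf2 activity, differed less than these, from 116, 125 and 100.2 CPM to 166, 147 and 149.6 CPM. Its 1.36-fold rise (edgeR adjusted p = 0.0261) was lost without TGL 0 (0.066), TGL 2 (0.0874), TGH 0 (0.0764), TGH 1 (0.0583) or TGH 2 (0.0518). The epoxide hydrolase Ephx1 (1.5-fold, edgeR adjusted p = 0.00981) and the reductase Cyb5r1 (1.43-fold, edgeR adjusted p = 0.007) kept their calls without any 1 library. Called members of the list numbered 5 (without TGL 2 or TGH 1) to 8.

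Among 15 genes of NADPH supply 2 rose and 1 fell, beside 5.53% and 4.11% of all tested genes. Transaldolase (Taldo1, ENSMUSG00000025503, chromosome 7, 141392199 to 141402968), of the pentose phosphate pathway, stood at 254, 273 and 214 CPM in TGL, against 659, 644 and 659 CPM in TGH. The 3 TGH libraries differed from each other by under 20 CPM, and the rise was 2.65-fold (edgeR adjusted p = 1.52e-05). Pgd, which makes NADPH in the same pathway, went from 76.3, 83.2 and 63.1 CPM to 152, 154 and 131 CPM (1.96-fold, edgeR adjusted p = 0.0002). Idh1, the cytosolic isocitrate dehydrogenase that also yields NADPH, was highest in TGL: it stood at 55.5, 55.8, 88.5 and 62.8 CPM in NTG, 152, 139.7 and 131 CPM in TGL, against 83.4, 83 and 76.8 CPM in TGH. Against TGL it dropped by 0.80 in log2 units in TGH (edgeR adjusted p = 0.00743). G6pdx, the entry enzyme of the pentose phosphate pathway (-0.13, edgeR adjusted p = 0.6), and malic enzyme (Me1, -0.12, edgeR adjusted p = 0.379) were not called.

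Of 14 haem and iron genes 3 rose and 0 fell (median 0.26). Blvrb (ENSMUSG00000040466, chromosome 7, 27447978 to 27466144), a biliverdin and flavin reductase, stood at 94.7, 97.2 and 70.0 CPM in TGL, against 307, 284 and 255 CPM in TGH, with NTG at 10.6 to 13.2 CPM, so the 3 groups did not overlap. It rose 3.23-fold (edgeR adjusted p = 3.27e-05). Hfe, an MHC-like protein that governs iron uptake, behaved otherwise in TGL: its 42.7, 36.5 and 27.5 CPM lay within the NTG range of 21.2 to 50.5 CPM, and TGH stood at 188, 172 and 149.5 CPM (4.77-fold, edgeR adjusted p = 0.000345). Fth1, the ferritin heavy chain, rose 1.25-fold, from a range of 2026 to 2214 CPM to one of 2542 to 2863 CPM (edgeR adjusted p = 0.0143), a call lost without TGL 2 (0.0613) and with the TGH and TGL libraries fitted alone (0.0574). Without TGL 2 the list had 2 called members, and 4 without TGH 2. Haem oxygenase Hmox1 was not called: TGL stood at 11.8, 9.39 and 37.5 CPM and TGH at 14.8, 20.2 and 38.6 CPM, with TGL 2 and TGH 2 the highest of their groups (0.33 ± 0.54, edgeR adjusted p = 0.761). Over the fits that each omit a single library, the Hmox1 log2 difference ranged from -0.15 without TGH 2 to 1.21 without TGL 2, and it was -0.0052 without TGL 1. Alad, which carries out an early step of haem synthesis, was among the genes that rose furthest. Its TGL libraries at 35.4, 36.9 and 33.7 CPM lay at the low end of the NTG range of 32.9 to 63.5 CPM, and TGH stood at 180.1, 180.5 and 155 CPM (4.86-fold, edgeR adjusted p = 0.00016). Heph, the copper enzyme that oxidises iron for export, had the smallest adjusted p of all genes and was chosen for that after its values were seen. It stood at 19.4, 21.2 and 19.9 CPM in TGL, against 90.9, 89.5 and 77.5 CPM in TGH and 2.87 to 3.43 CPM in NTG, so the 3 groups did not overlap (4.26-fold, log2 fold change 2.09 ± 0.10 (SE), edgeR adjusted p = 1.18e-06).

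Apart from Alad, Hfe and Ptgr1, the largest rises included genes at low levels in TGL. Ly6g, the surface antigen by which neutrophils are known, stood at 1.38, 0.817 and 0.291 CPM in TGL, against 6.79, 10.6 and 4.76 CPM in TGH (8.74-fold, edgeR adjusted p = 0.00127), while 3 of the NTG libraries had 0 counts and NTG 3 stood at 0.114 CPM. Clec4f, a lectin of liver macrophages, went from a range of 0.272 to 0.436 CPM to one of 1.87 to 3.46 CPM (7.43-fold, edgeR adjusted p = 0.00305). The acid-sensing channel Asic2 went from a range of 0.415 to 0.817 CPM to one of 2.92 to 6.23 CPM (7.22-fold) and Cnbd1 from a range of 0.408 to 0.691 CPM to one of 2.68 to 3.03 CPM (5.41-fold), and both had 0 counts in all NTG libraries. In TGL these 4 genes had 2 to 10 counts a library, so their fitted fold changes rest on few counts. The elastase Cela1 rose 5.26-fold, from a range of 1.52 to 2.47 CPM to one of 10.7 to 12.3 CPM (edgeR adjusted p = 0.000128). Slc1a4, a transporter of neutral amino acids, rose 4.86-fold, from the NTG level to 9.25, 8.65 and 15.7 CPM (edgeR adjusted p = 0.000631). Xkr4 rose 6.58-fold, with TGH libraries at 2.46, 5.28 and 12.8 CPM that spread widely above TGL at 0.953 to 1.16 CPM, and 3.79-fold without TGH 2 (edgeR adjusted p = 0.0116). Myl1, the alkali light chain of fast muscle myosin, stood at 21.8, 47.4 and 35.9 CPM in TGL, against 330.2, 142 and 139 CPM in TGH (5.8-fold, edgeR adjusted p = 0.0018), with TGH 0 far above the other TGH libraries and 11.7% of its words shared with other genes. Poln, a DNA polymerase, was lowest in TGL, at 0.415, 0.136 and 0.291 CPM, with TGH at 1.64, 2.77 and 1.41 CPM and NTG at 2.29 to 5.98 CPM, and its call (edgeR adjusted p = 0.0195) was lost without TGL 1 (0.0836), TGL 2 (0.0583) or TGH 1 (0.0784).

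Of 21 contractile genes of the adult heart 8 fell in TGH, 13 were not called and 0 rose. Tnni3 (ENSMUSG00000035458, chromosome 7, 4518305 to 4524229), cardiac troponin I, stood at 4978, 5051 and 4864 CPM in TGL, just under or within the NTG range of 4968 to 5225 CPM, and at 3752, 3144 and 3169 CPM in TGH. It dropped by 0.57 in log2 units (0.676-fold, edgeR adjusted p = 0.00111). The ventricular myosin light chains were lower as well. Myl3 went from 4938, 5139 and 5206 CPM in TGL to 3118, 3386 and 3895 CPM in TGH (0.68-fold, edgeR adjusted p = 0.00211), and Myl2 from 10612, 10844 and 10392 CPM to 8445, 7460.2 and 7987 CPM (0.75-fold, edgeR adjusted p = 0.00981). In all 3 genes the groups did not overlap and no call was lost with 1 library left out. Cmya5, a costamere protein with 19.5% of its words shared, fell to 0.573-fold (edgeR adjusted p = 0.00275). Myh6, the main myosin heavy chain of the adult mouse ventricle, stood at 15918, 20616 and 19336 CPM in TGL, against 12866, 10588 and 11447 CPM in TGH, with 20.2% shared words. Its fall to 0.625-fold (edgeR adjusted p = 0.0259) was lost without TGL 1 (0.096), TGL 2 (0.0655), TGH 1 (0.103) or TGH 2 (0.0649). The median log2 fold change of these 21 sarcomere genes was -0.27, and the called members numbered 4 (without TGL 1 or TGH 1) to 10 (without TGH 0). Of 8 cardiomyocyte markers 0 rose and 4 fell, namely Myh6, Tnni3, Myl2 and Myl3 (median over the 8 -0.32). Among the 8, 6 had a negative and 2 a positive log2 fold change, the highest 0.45. Their summed level was 70992 to 73073 CPM in TGL and 59785 to 64503 CPM in TGH. This sum includes the 4 genes that fell and does not show a fall of each marker. In tissue RNA, fewer heart muscle cells and less RNA of these genes per cell cannot be told apart.

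**Figure D3:**
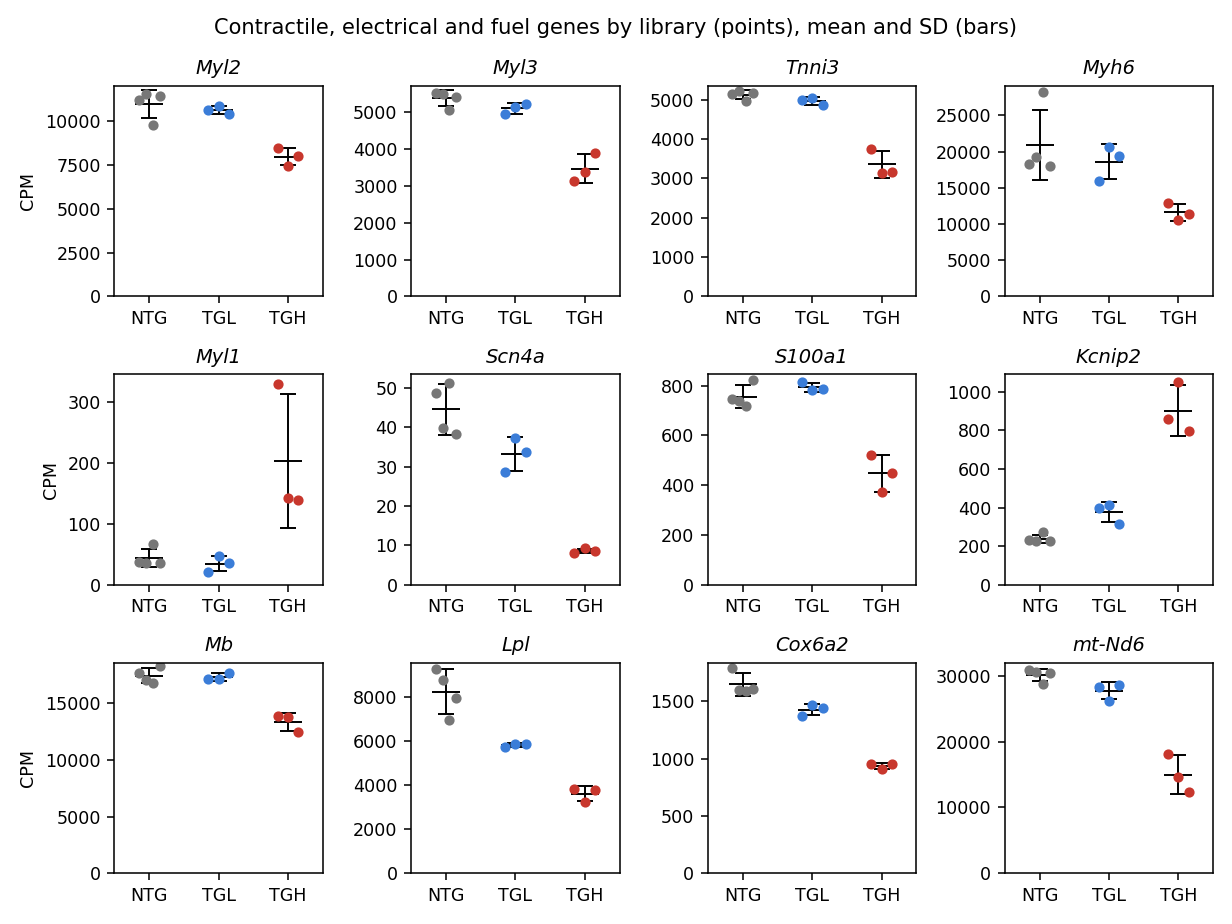
CPM of 12 contractile, electrical, calcium and fuel genes in each library (points) of NTG, TGL and TGH, with the group mean and SD (bars). Myl1 and Kcnip2 lie higher in every TGH library than in any TGL library and the other 10 genes lie lower, with Scn4a at 33.3 ± 4.29 CPM in TGL and 8.66 ± 0.54 CPM in TGH (mean ± SD, n = 3 each).

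Genes of skeletal muscle type that ventricles also express differed too. Mybpc2, the fast isoform of myosin-binding protein C, stood at 9.95, 19.1 and 22.5 CPM in TGL, against 2.46, 1.3 and 4.43 CPM in TGH (6.41-fold lower, edgeR adjusted p = 0.00198), with TGL in the NTG range of 9.57 to 19.7 CPM or just outside it. Of 4 tested skeletal muscle markers 0 rose and 3 fell, the myosins Myh1 and Myh4 and the creatine kinase Ckm. Without TGL 1 or without TGH 1, 0 of these markers were called, and without NTG 2 or TGL 0 all 4 were. Ckm fell to 0.703-fold (edgeR adjusted p = 0.015, lost without TGL 1 (0.0628) or TGH 1 (0.0694)) and shared 10.8% of its words. Myh4 fell to 0.385-fold (edgeR adjusted p = 0.0249, lost without TGL 1 (0.0745), TGL 2 (0.0702), TGH 1 (0.0922) or TGH 2 (0.0837)), with TGH 0 nearest to TGL and a fall to 0.252-fold without TGH 0, and shared 18.9%. The skeletal alpha-actin Acta1, also a gene of the fetal heart program, stood at 264, 933 and 939 CPM in TGL, against 149, 125 and 163 CPM in TGH (-2.29 ± 0.66, edgeR adjusted p = 0.0504). TGL 0 was far below the other TGL libraries, and NTG 2, at 1063 CPM, was the highest library of all. The summed level of the 4 markers was 1967, 2932 and 2911 CPM in TGL, against 1484, 1300.5 and 1556 CPM in TGH and the groups did not overlap, with NTG 2 above every other library at 3451 CPM. The markers Mylpf and Tnnt3 were under the low-count filter.

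Ion channel and pump genes were lower in 6 of 28 cases and higher in 1 (median -0.33). Scn4a (ENSMUSG00000001027, chromosome 11, 106318592 to 106353288), the sodium channel of skeletal muscle, stood at 28.8, 37.3 and 33.7 CPM in TGL, against 8.2, 9.26 and 8.54 CPM in TGH. The TGH libraries lay within 1.1 CPM of each other, NTG was at 38.2 to 51.3 CPM, and the fall was 3.82-fold (edgeR adjusted p = 3.9e-05). Kcnj5, a subunit of the channel that acetylcholine opens, fell from a range of 94.8 to 99.7 CPM to one of 56.3 to 68.6 CPM (edgeR adjusted p = 0.000536). Atp1b2, a beta subunit of the sodium pump, fell from a range of 24.3 to 28.9 CPM to one of 15.1 to 17 CPM (edgeR adjusted p = 0.00193). Kcnip2, the subunit that shapes the transient outward potassium current, was the 1 gene that rose. It stood at 230.4, 226, 272 and 224 CPM in NTG, 399, 415 and 317 CPM in TGL, against 857, 1048 and 795 CPM in TGH, 3 groups that did not overlap (2.39-fold, edgeR adjusted p = 0.000158). The list had 4 called members without TGH 1 and 9 without NTG 1.

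Of 23 calcium handling genes 0 rose and 3 fell, beside 5.53% and 4.11% of all tested genes. The list as a whole did not move: its median was -0.004, with 11 members positive and 12 negative. S100a1, a calcium sensor that enhances the calcium pump, stood at 813, 781 and 787 CPM in TGL, against 522, 371 and 449.8 CPM in TGH (0.564-fold, edgeR adjusted p = 0.000661), and TGL lay at the NTG level of 718 to 823 CPM. Hrc, the histidine-rich calcium-binding protein of the sarcoplasmic reticulum, fell to 0.716-fold (edgeR adjusted p = 0.00661). Casq1, the skeletal calsequestrin, went from 20.9, 33.2 and 80.4 CPM to 6.32, 7.87 and 10.4 CPM (edgeR adjusted p = 0.0108), with TGL 2 far above TGL 0 and TGL 1. Its log2 fold change was -2.45, and -1.72 without TGL 2, and its call was lost without TGH 1 (0.0542), which left 2 called members. The calcium pump Atp2a2 (-0.06, edgeR adjusted p = 0.689), the release channel Ryr2 (0.10, edgeR adjusted p = 0.587) and phospholamban (Pln, -0.06, edgeR adjusted p = 0.643) were not called.

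The natriuretic peptide genes, which heart muscle under load switches on, overlapped between the lines. Nppa, with 53.4% shared words, stood at 293, 894 and 356 CPM in TGL, against 316, 349 and 378 CPM in TGH, and the groups overlapped, with TGL 1 the highest library (-0.57 ± 0.37, edgeR adjusted p = 0.387). Nppb stood at 394, 370.0 and 287 CPM and 293, 261 and 657 CPM, again with overlap (0.20 ± 0.66, edgeR adjusted p = 0.887). The sign of the Nppb change turned without TGH 2 (-0.34, edgeR adjusted p = 0.821) and with the replicate number as a block (-0.13, edgeR adjusted p = 0.91). That of Nppa turned without TGL 1 (0.10, edgeR adjusted p = 0.878). Myh7, the slow myosin of the fetal ventricle, was lower in every TGH library, at 2505, 2153 and 3033 CPM against 3142, 4103 and 4770.1 CPM, and shared 20.04% of its words. Its difference (-0.64 ± 0.24, edgeR adjusted p = 0.127) passed the threshold only without NTG 2 (0.0401) or with the replicate number as a block (0.0325). Of 14 hypertrophy and fetal genes 2 rose and 0 fell, beside 5.53% and 4.11% of all tested genes, and 5 were called without NTG 2. The members that rose were Nmrk2, a kinase that makes NAD precursors, and Uchl1, a deubiquitinase that nerve cells also express. Nmrk2 went from 11.5, 12.8 and 9.6 CPM to 38.1, 61.6 and 42.2 CPM (4.19-fold, edgeR adjusted p = 0.000493) and Uchl1 from 20.7, 9.39 and 19.9 CPM to 33.8, 49.3 and 65.3 CPM (2.97-fold, edgeR adjusted p = 0.00482). In both the groups did not overlap, and the genes shared 13.5% and 12.6% of their words.

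Some genes of fatty acid uptake and oxidation and of the nuclear part of oxidative phosphorylation fell, and none was called higher. Over all tested genes 5.53% rose and 4.11% fell. A positive log2 fold change, not called, was seen in 8 of 33 and 6 of 32 members. Lpl (ENSMUSG00000015568, chromosome 8, 68880491 to 68907448), the lipase that frees fatty acids from lipoproteins, stood at 9283, 8805, 6972 and 7994 CPM in NTG, 5742, 5876 and 5894 CPM in TGL, against 3857, 3234 and 3777 CPM in TGH. The 3 groups did not overlap, and TGH was at 0.621-fold of TGL (edgeR adjusted p = 0.00217). Hadha, of the mitochondrial enzyme complex that oxidises long-chain fatty acids, fell to 0.748-fold (edgeR adjusted p = 0.00875). Etfb, a subunit of the electron transfer flavoprotein, fell to 0.762-fold (edgeR adjusted p = 0.0034) with 44.8% shared words. Of 33 genes of fatty acid uptake and oxidation 0 rose and 4 fell (median -0.18). The list's summed level was 26926, 26456 and 27318 CPM in TGL, against 24514, 22511 and 19397 CPM in TGH, lowest in TGH 2. Of 32 nuclear genes of oxidative phosphorylation 0 rose and 6 fell (median -0.09). The muscle isoforms of cytochrome oxidase subunits led them: Cox6a2 went from 1373, 1464 and 1446 CPM to 949, 909 and 957 CPM (edgeR adjusted p = 0.000345) and Cox8b from 464, 499 and 473 CPM to 286, 310.1 and 336 CPM (edgeR adjusted p = 0.000395). Called members of that list numbered 3 (without TGL 0 or TGL 1) to 6. Myoglobin (Mb), the oxygen store of muscle, stood at 17172, 17146 and 17702 CPM in TGL, against 13924, 13769.5 and 12473 CPM in TGH (0.772-fold, edgeR adjusted p = 0.00971, and 0.0605 with the TGH and TGL libraries fitted alone), with 24.9% of its words shared.

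Of the 13 messages encoded by mitochondrial DNA, 3 were tested and 1, mt-Nd6, was called. The other 10 were not found by symbol in the deposited counts. The mt-Nd6 message stood at 28331, 26219.8 and 28662 CPM in TGL, against 18056, 14661 and 12289 CPM in TGH, against 28741 to 30822 CPM in NTG (0.541-fold, edgeR adjusted p = 0.000828). mt-Nd6 lies on the opposite strand to the other messages, and the strand of counting is not given in the sources used here, so reads of the opposite strand cannot be told apart. Of 26 tested genes of the mitochondrial chromosome 11 were called (42.3%), 10 lower and 1 higher. The called share on nuclear autosomes and X ranged from 5.15% on chromosome 12 to 12.1% on chromosome 14. A run of 7 transfer RNA genes, from mt-Tq to mt-Ty, was lower in TGH. They are neighbours among the tested genes only, with a gap from 3913 to 4950 between mt-Tm and mt-Tw. Here too reads of the opposite strand cannot be told apart, so the 7 need not be separate measurements. Of the calls in this run that of mt-Ta was lost without NTG 3 (0.0502), TGL 0 (0.0989), TGL 2 (0.122), TGH 0 (0.0873), TGH 1 (0.0797) or TGH 2 (0.114), and that of mt-Tc without TGL 0 (0.0533), TGL 2 (0.0798), TGH 0 (0.0772), TGH 1 (0.0805) or TGH 2 (0.0674). The call of mt-Tw was lost without TGL 2 (0.0503), TGH 1 (0.065) or TGH 2 (0.0544) and that of mt-Tq without TGH 0 (0.051), while mt-Tm, mt-Tn and mt-Ty kept theirs without any 1 library. The block by replicate number ended the calls of mt-Ta (edgeR adjusted p = 0.0579) and mt-Tc (0.0511). In mt-Ty the TGL libraries stood at 249, 221 and 409.7 CPM and the TGH libraries at 160.1, 144 and 122 CPM, with TGL 2 above the other TGL libraries (edgeR adjusted p = 0.00807).

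Few glycolysis and NAD genes were called. Of 28 genes of glucose uptake and glycolysis 2 rose and 2 fell, near the shares over all tested genes (5.53% and 4.11%). Gbe1, the glycogen branching enzyme, rose from 186, 178 and 143 CPM to 326, 284 and 271 CPM (1.74-fold, edgeR adjusted p = 0.000731). The muscle enolase Eno3 (0.726-fold, edgeR adjusted p = 0.00461) and hexokinase 2 (Hk2, 0.748-fold, edgeR adjusted p = 0.00952) fell. Pgk1 rose 1.2-fold (edgeR adjusted p = 0.0431), a call lost without NTG 0 (0.0616), NTG 1 (0.0534), NTG 3 (0.0569), TGL 0 (0.0922), TGL 1 (0.102), TGL 2 (0.133), TGH 1 (0.14) or TGH 2 (0.128). In NAD salvage 1 of 13 genes rose, Nmrk2, and 1 fell, again near those shares. The gene that fell was Naprt, which uses nicotinic acid, and it went from a range of 8.43 to 10.5 CPM to one of 3.2 to 4.33 CPM (edgeR adjusted p = 0.00187). Gpd1, a cytosolic glycerol phosphate dehydrogenase kept on the ventricular marker list, fell from 66.9, 78.1 and 89.9 CPM to 36.5, 26.6 and 29.9 CPM (0.395-fold, edgeR adjusted p = 0.000493). Of 21 genes of cholesterol and lipid synthesis 1 rose and 1 fell. Star, which carries cholesterol into mitochondria, stood at 2.17 to 3.23 CPM in NTG, 123, 138 and 149 CPM in TGL, against 348, 240.3 and 302 CPM in TGH (2.17-fold, edgeR adjusted p = 0.000324).

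In most of the genes that fell furthest, TGL overlapped the NTG range. Fah, which completes tyrosine breakdown, stood at 11.9, 22.9 and 15.1 CPM in TGL, against 3.16, 1.99 and 2.59 CPM in TGH (6.52-fold lower, edgeR adjusted p = 0.00025). Art4, an ADP-ribosyltransferase of the cell surface, went from 17.8, 29.3 and 15.3 CPM to 1.76, 2.34 and 5.19 CPM (6.73-fold lower, edgeR adjusted p = 0.000445). Dct, an enzyme of melanin synthesis, stood at 7.26 to 10.3 CPM in NTG, 3.13 to 4.51 CPM in TGL and 0.351 to 0.649 CPM in TGH, with no overlap (7.44-fold lower, edgeR adjusted p = 0.000226). Igsf23 stood at 11.6, 16.2 and 16.1 CPM in TGL, against 0.586, 0 and 1.84 CPM in TGH (18.9-fold lower), and Lgi1, a secreted protein with 12.9% shared words, at 6.36, 7.22 and 9.31 CPM and 0, 0.0865 and 1.62 CPM (13.5-fold lower). Cpn2, the regulatory subunit of carboxypeptidase N, went from a range of 2.47 to 3.18 CPM to one of 0.234 to 0.432 CPM and Meig1, known from spermatogenesis, from a range of 1.52 to 2.33 CPM to one of 0 to 0.324 CPM, both under 1 CPM in TGH. The calls of these 7 genes held with any 1 library left out. The size of the fall depended on TGH 2 in Igsf23 (log2 fold change -4.24, and -5.79 without it), Lgi1 (-3.76 and -6.89) and Meig1 (-3.63 and -4.86), and on TGH 1 in the same genes (-3.56, -3.16 and -2.97 without it). These fitted values rest on few counts in TGH. Tac1, which encodes substance P, had 54 counts in TGL and 3 in TGH, which gives TGL 24.6 times the level of TGH (95% exact interval 7.99 to 123, for counting error alone; edgeR adjusted p = 0.00628). Foxo6os, an RNA antisense to Foxo6 whose reads cannot be told from its partner's without the strand, went from 4.98, 3.68 and 2.47 CPM to 0.703, 0 and 0.865 CPM (edgeR adjusted p = 0.0152, lost without TGL 0 (0.0534)).

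C1s1, a protease that starts the classical complement pathway, had the lowest log2 fold change of the named genes and split the low line. It stood at 28.5, 28.4, 38.9 and 14.1 CPM in NTG, 0.138, 15 and 11.8 CPM in TGL, against 0.117, 0 and 0.108 CPM in TGH. TGL 0 had 1 count, at the level of TGH, while TGL 1 and TGL 2 lay near or under the lowest NTG library. Over the groups there were 192 counts in TGL and 2 in TGH, 131 times the level (95% exact interval 35.9 to 1092, for counting error alone). The interval pools the libraries of a group and leaves out the spread between TGL 0 and the other TGL libraries. Its call (edgeR adjusted p = 0.0123) was lost without TGL 1 (0.0501) or TGH 1 (0.0641), and 35.1% of its words were shared with other genes. Of 11 complement and acute phase genes 2 rose and 3 fell, with 1 called without TGL 1 or TGH 1. Over all tested genes 5.53% rose and 4.11% fell. Among drug metabolism genes (1 rose and 2 fell of 19, with 1 called without TGL 0 or TGL 1 and 5 without NTG 2) the carboxylesterase Ces1d fell. It stood at 118 to 186 CPM in NTG, 71.3, 63.7 and 84.9 CPM in TGL, against 24.2, 22.4 and 28.5 CPM in TGH (2.93-fold lower, edgeR adjusted p = 0.000229), and the 3 groups did not overlap.

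No heat shock or endoplasmic reticulum folding gene of the lists was called between the lines by edgeR, though most had a negative log2 fold change. Of 24 heat shock proteins and co-chaperones 0 were called by edgeR (median -0.20), 1 had an unadjusted p under 0.05 and 1 was called by DESeq2. Of 21 genes of the unfolded protein response 0 were called by edgeR or by DESeq2 (median -0.31), and 2 had an unadjusted p under 0.05. The log2 fold change was negative in 20 heat shock and 18 unfolded protein response genes, and positive in 4 and 3. The mean log2 CPM of the heat shock list was 7.20, 7.41 and 8.55 in TGL and 7.20, 7.40 and 8.05 in TGH. TGL 2 and TGH 2 lay above the other libraries of their groups, and the same was seen for the unfolded protein response at 5.82, 5.88 and 6.49 and 5.71, 5.72 and 6.11. NTG stood at 8.61, 8.38, 7.69 and 8.38 for the heat shock list and 6.65, 6.62, 6.30 and 6.55 for the unfolded protein response. TGL 2 lay within the NTG range in both lists and TGH 2 in the heat shock list. TGL 0, TGL 1, TGH 0 and TGH 1 lay below every NTG library in both. Hspa1a, an inducible chaperone, showed the widest split, with 2.9, 4.22 and 186 CPM in TGL, against 1.87, 7.01 and 43.4 CPM in TGH (-1.89, edgeR adjusted p = 0.442). Leaving out TGL 2 and TGH 2 together, an alternative set because these libraries were known to stand apart, gave 770 called genes, 453 higher and 317 lower in TGH, and the part of these libraries in other results was not tested. Of 18 genes of the integrated stress response 0 rose and 1, Atf5, fell (edgeR adjusted p = 0.0346), a call lost without NTG 0 (0.0522), TGL 1 (0.0975), TGL 2 (0.116), TGH 0 (0.0815), TGH 1 (0.113) or TGH 2 (0.05). Over all tested genes 5.53% rose and 4.11% fell. Of 23 immediate early genes 0 were called by edgeR or by DESeq2, and 1 had an unadjusted p under 0.05.

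**Figure D4:**
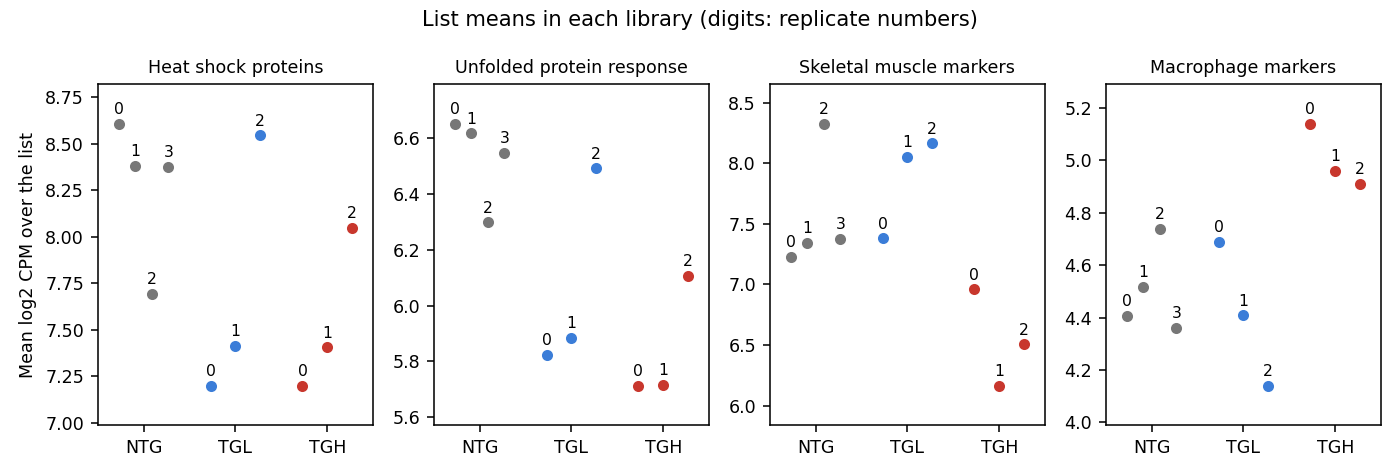
Mean log2 CPM over the tested members of 4 lists in each library, with the replicate number above each point. TGL 2 and TGH 2 lie above the other libraries of their groups in the heat shock and unfolded protein response panels, TGH lies below TGL in the skeletal muscle panel and above it in the macrophage panel.

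Of 30 proteasome genes 5 rose and 2 fell (median 0.02), with 3 called without TGL 1 or TGH 1. Over all tested genes 5.53% rose and 4.11% fell, and these shares also stand beside the other lists of this paragraph. Psma5, a subunit of the catalytic core, went from 40.6, 34.2 and 41.6 CPM to 62.4, 76.3 and 68.5 CPM (1.78-fold, edgeR adjusted p = 0.000438) with 49.96% shared words, and Psmd11, of the regulatory lid, from a range of 119 to 130.4 CPM to one of 163 to 219.8 CPM (1.49-fold, edgeR adjusted p = 0.005). Psmb2, another core subunit, fell to 0.721-fold (edgeR adjusted p = 0.00866). Of 17 autophagy and lysosome genes 3 rose and 0 fell, and 2 were called without any TGL library or TGH 1. Map1lc3a, which coats autophagosomes, rose from a range of 296 to 305 CPM to one of 408 to 469.9 CPM (edgeR adjusted p = 0.000701) and the lysosomal membrane protein Lamp2 from a range of 257 to 283 CPM to one of 326 to 348 CPM (edgeR adjusted p = 0.00671). Of 6 atrophy ubiquitin ligases 1, Fbxo30, rose (1.76-fold, edgeR adjusted p = 0.0101), which was lost without TGL 1 (0.051). Of 17 genes of p53 and apoptosis 4 rose and 1 fell, with 2 called without TGH 1. Among those that rose was the inflammatory caspase Casp12, from 24.1, 22.9 and 17.7 CPM to 48.6, 53.3 and 37.6 CPM (2.16-fold, edgeR adjusted p = 0.00844).

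Markers of other cell types moved with some of these groups. All 10 macrophage markers had a positive log2 fold change (0.30 to 0.98, median 0.60), and 3 rose, with 2 to 5 called when 1 library was left out (5 without TGL 0). Lyz2, the lysozyme of phagocytes, stood at 152, 116 and 131 CPM in TGL, against 242, 240.1 and 218 CPM in TGH (1.75-fold, edgeR adjusted p = 0.000536) with 15.4% shared words, and C1qc, a complement subunit made by macrophages, went from a range of 34.3 to 41.3 CPM to one of 48.4 to 61.8 CPM (1.48-fold, edgeR adjusted p = 0.00971). The summed level of the 10 markers was 419.8, 345 and 332 CPM in TGL, against 596, 543 and 536 CPM in TGH, and the groups did not overlap. Of 10 fibroblast markers 1 rose and 0 fell, with 0 called when NTG 0, NTG 3, TGH 1, TGH 2 or any TGL library was left out and 2 without TGH 0. All 10 had a positive log2 fold change (0.03 to 0.44, median 0.19). The summed level of these 10 was 3254, 2920.4 and 2594 CPM in TGL, against 3263, 3485 and 3784 CPM in TGH. Of 5 tested activated fibroblast markers 4 had a positive log2 fold change (median 0.68). Among them 1 rose and 0 fell, with 0 called without TGL 0, TGL 1, TGH 0 or TGH 2. Of 10 endothelial markers 0 rose and 2 fell, Pecam1 and Cdh5, with 0 called without TGL 1, and 9 had a negative log2 fold change. The summed endothelial level was 1694, 1661 and 1547 CPM in TGL, against 1527, 1250.2 and 1199.8 CPM in TGH, with every TGH library below every TGL library. Of 6 pericyte markers 1, Rgs5, fell, from 948, 779.9 and 894 CPM to 645, 514 and 595 CPM (0.669-fold, edgeR adjusted p = 0.00285), and all 6 had a negative log2 fold change, with 2 called without TGL 2. Of 5 endocardial, 6 smooth muscle and 5 erythroid markers 0 were called by edgeR, with 0, 1 and 1 under an unadjusted p of 0.05 and 0, 1 and 0 called by DESeq2. The summed erythroid level, 722 to 1017 CPM in TGL and 718 to 804 CPM in TGH, overlapped. None of the 5 adipocyte markers was tested, 1 of 7 lymphocyte and 1 of 5 mesothelial markers were tested and not called, and of 5 nerve and glia markers 4 were tested, of which 1, Uchl1, rose. Of 8 atrial markers 4 were tested, with 0 called by edgeR or DESeq2, 1 under an unadjusted p of 0.05 and 1 called without TGL 1. Beside these marker counts, 5.53% of all tested genes rose and 4.11% fell. The part of these cells in other results was not tested.

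Of 39 extracellular matrix genes 3 rose, the fibrillar collagen chain Col1a2, Col14a1 and periostin (Postn), and 0 fell, with 0 called without TGL 1 or TGH 2. The share that rose was near that over all tested genes, of which 5.53% rose and 4.11% fell. These shares also stand beside the other lists of this paragraph. Postn, a mark of activated fibroblasts, rose 1.6-fold (edgeR adjusted p = 0.0268, lost without TGL 0 (0.0842), TGL 1 (0.103), TGH 0 (0.0742) or TGH 2 (0.0809)). Of 27 interferon response genes 1, Bst2, an antiviral membrane protein, rose (1.91-fold, edgeR adjusted p = 0.0119), which was lost without TGL 0 (0.0507), while 3 of the list were called without TGH 1 or TGH 2. The interferon list's median log2 fold change was 0.40, and TGH 0 had the highest summed level of the transgenic libraries, 1042, 707 and 753 CPM in the TGH libraries against 889.6, 847 and 755 CPM in TGL, which overlap. Of 18 clock genes 1 fell, of 23 cell cycle genes 1 fell, and of 27 growth factor and hormone genes 1 rose and 1 fell. Each of these lists had 0 called members without TGL 1, TGL 2 or TGH 1, and the clock list had 3 without NTG 3 and the growth factor list 5 without NTG 2. The median log2 fold change was -0.36 in the clock list, with 14 members negative and 4 positive. It was 0.18 in the cell cycle list and -0.11 in the growth factor list. An unadjusted edgeR p under 0.05 was seen in 7 clock, 1 cell cycle and 8 growth factor and hormone genes.

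**Figure D5:**
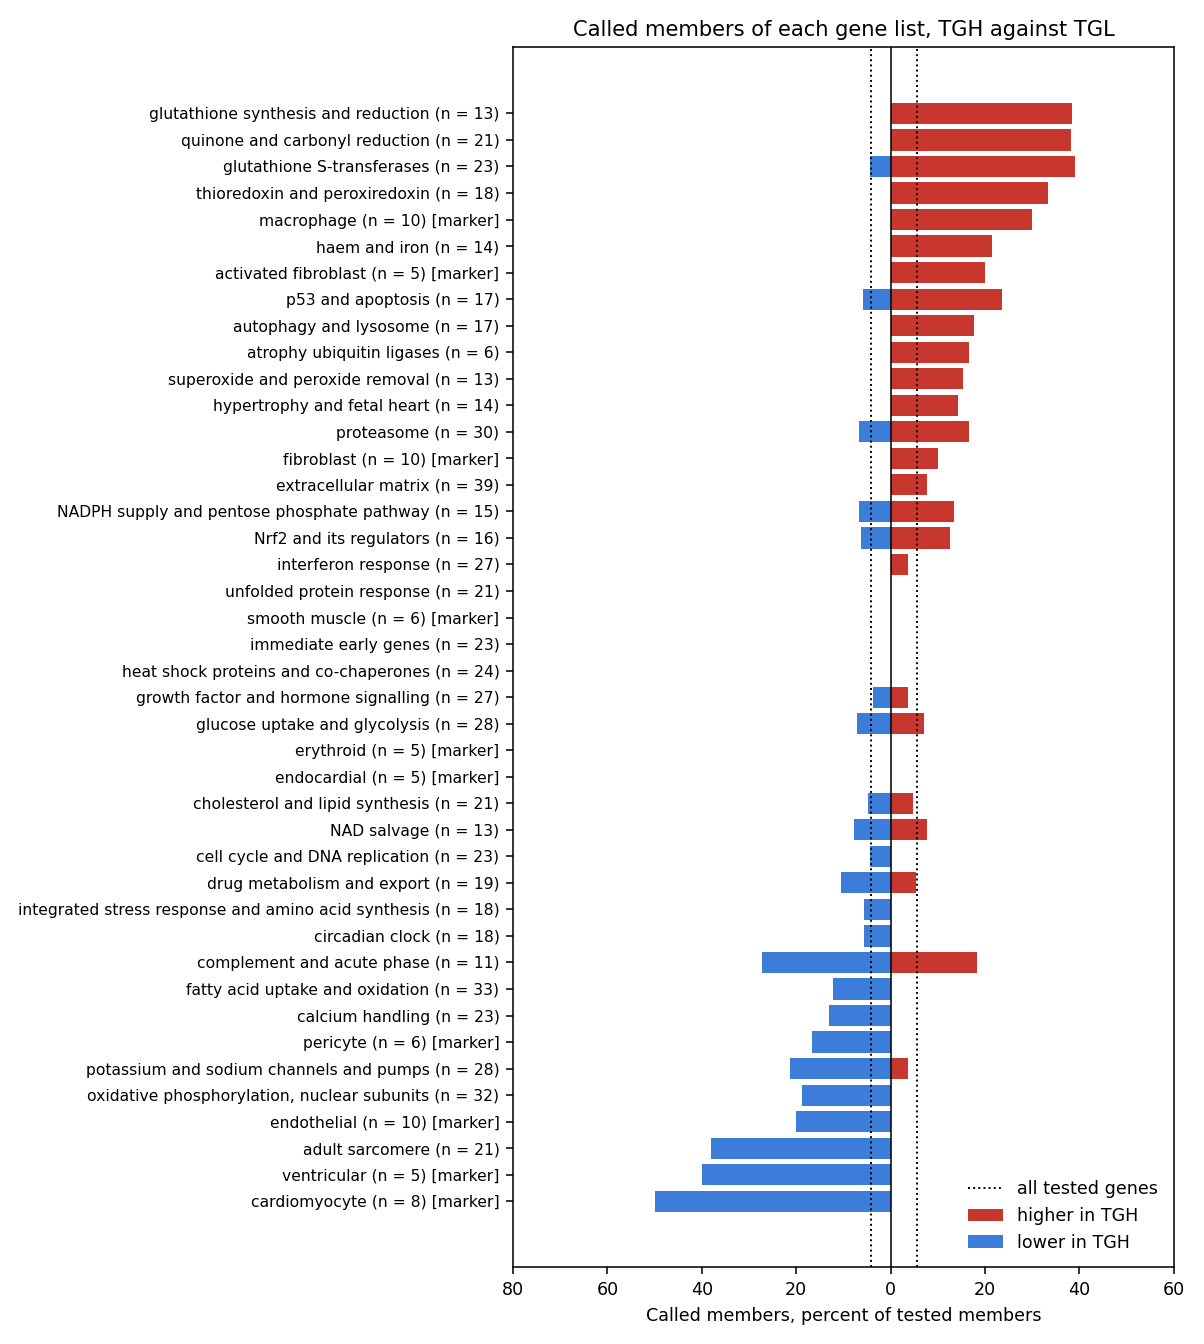
Percent of the tested members of each list (n) that rose (red, right) or fell (blue, left) in TGH against TGL, with the share over all tested genes dotted (5.53% and 4.11%). Only lists with at least 5 tested members are drawn. Glutathione, transferase, quinone and thioredoxin lists reach furthest to the right, and cardiomyocyte markers, ventricular markers and adult sarcomere genes furthest to the left.

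Every TGL library was above every NTG and every TGH library in 185 of the tested genes (1.27%), of which 53 were called, and below all of them in 152 (1.05%), of which 39 were called. Sorcs2, a sorting receptor of the sortilin family, was among those below: it stood at 21.5, 28.2, 31.2 and 18.7 CPM in NTG, 4.01, 3.27 and 4.07 CPM in TGL, against 16.7, 17.6 and 18.9 CPM in TGH (4.69-fold in TGH against TGL, edgeR adjusted p = 0.000138). Cd300lb, a receptor of myeloid cells, stood at 1.34 to 2.75, 0.8295 to 1.09 and 2.59 to 3.63 CPM (edgeR adjusted p = 0.00778), and Ifit3b, an interferon-induced gene with 45% shared words, at 7.09 to 9.93, 5.25 to 6.81 and 10.3 to 24.9 CPM (edgeR adjusted p = 0.00758). Above both stood Astn2, an astrotactin, at 2.18 to 2.87, 4.49 to 6.5 and 0.779 to 2.38 CPM (edgeR adjusted p = 0.00697). The cytokinesis kinase Cit stood at 1.03 to 1.66, 1.94 to 2.62 and 0.606 to 0.973 CPM (edgeR adjusted p = 0.00862, lost without TGH 1 (0.051)), and the M-band protein Myom3 at 1.35 to 2.39, 3.04 to 3.95 and 1.41 to 1.87 CPM (edgeR adjusted p = 0.017, lost without TGL 1 (0.0713), TGH 1 (0.0738) or TGH 2 (0.0555)).

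Called genes lay next to each other in 12 runs of at least 4 tested neighbours. The mu class transferases Gstm3, Gstm2, Gstm1 and Gstm4 with the predicted gene Gm12499 formed a run on GRCm38 chromosome 3 (107963696 to 108044894) in which all 5 rose. Gstm2 went from 205, 201 and 145 CPM to 453, 409 and 323 CPM (2.154-fold, edgeR adjusted p = 0.000823), and Gstm1, with 18.9% shared words, from 385, 399.6 and 297 CPM to 741, 678 and 584 CPM (1.85-fold, edgeR adjusted p = 0.000864). The alpha class run on chromosome 9 (78182774 to 78355788) held Gsta4, Gsta1, Gm10639, Gm8074 and Gsta2, which all rose, with Gm8074 lost without TGL 0 (0.0509) or TGH 1 (0.052). Gsta4 shared 0% of its words and rose 1.97-fold, from 81.1, 81.7 and 52.4 CPM to 150.5, 145 and 129 CPM (edgeR adjusted p = 0.00351). On distal chromosome 2 (175275125 to 178078476) 16 zinc finger and predicted genes in 4 runs all rose, and Zfp968 stood at 9.26, 7.62 and 9.45 CPM in TGL, against 16.9, 18.3 and 17.5 CPM in TGH (2-fold). Gm14421 lost its call without NTG 0 (0.0593) or any single TGL or TGH library. The call of Gm14401 was lost without TGL 0 (0.0881), TGL 1 (0.11) or TGH 1 (0.12). That of Zfp931 was lost without TGL 1 (0.064), TGL 2 (0.0573) or TGH 1 (0.069), and that of Zfp971 without TGL 0 (0.0757), TGL 1 (0.0793) or TGH 0 (0.0603). These 16 genes shared 23.3 to 100% of their words with other genes, so they are not independent measurements.

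On chromosome 16 (30256378 to 30550842) Cpn2, Lrrc15 and Tmem44 fell and Atp13a3 rose. The call of Tmem44 was lost without TGL 0 (0.0529), TGL 1 (0.113), TGL 2 (0.0701), TGH 0 (0.0538) or TGH 1 (0.133), and that of Atp13a3 without TGL 0 (0.051), TGL 1 (0.0624) or TGH 1 (0.0621). Lrrc15, a leucine-rich repeat membrane protein, stood at 40.9, 27 and 31.6 CPM in TGL, against 4.45, 4.84 and 7.24 CPM in TGH (6.01-fold lower, edgeR adjusted p = 0.000138), and NTG at 31.9 to 54.4 CPM overlapped TGL. On chromosome 2 (140170649 to 142901531) Ndufaf5, an assembly factor of respiratory complex I, went from 50.5, 52.5 and 44.1 CPM to 130.3, 164 and 136 CPM (2.93-fold, edgeR adjusted p = 3.27e-05), and its neighbours Macrod2 and Kif16b rose while the pseudogene Calr-ps fell, a call lost without TGL 2 (0.0596) or TGH 1 (0.072). On chromosome 7 (48908716 to 51598709) Nav2, Htatip2 and Prmt3 rose and Ano5 fell. The call of Prmt3 was lost without NTG 1 (0.0552), TGL 0 (0.0804), TGL 1 (0.0603), TGL 2 (0.124), TGH 1 (0.14) or TGH 2 (0.111), and that of Ano5 without TGL 2 (0.0797), TGH 1 (0.0897) or TGH 2 (0.0709). Htatip2, an oxidoreductase-like tumour suppressor, went from 29.4, 24.4 and 21.4 CPM to 45.7, 52.3 and 46.3 CPM (1.92-fold, edgeR adjusted p = 0.000959). On chromosome 1 (131285251 to 131821473) Pm20d1, an enzyme that makes N-acyl amino acids, fell from a range of 20.3 to 22.7 CPM to one of 7.96 to 10.8 CPM (edgeR adjusted p = 0.000959). Its neighbours that rose held their calls less well: Srgap2 lost its call without TGL 1 (0.0946), TGL 2 (0.0599), TGH 1 (0.0927) or TGH 2 (0.0752), Fam72a without TGL 0 (0.0875), TGL 1 (0.121), TGL 2 (0.0606), TGH 0 (0.0844) or TGH 1 (0.0867), and Rab7b without NTG 0 (0.0554), TGL 0 (0.0755), TGL 1 (0.127), TGL 2 (0.121), TGH 0 (0.0864), TGH 1 (0.0741) or TGH 2 (0.114). With the replicate number as a block the adjusted p was 0.0636 for Fam72a, 0.058 for Rab7b, 0.0676 for Prmt3 and 0.0512 for Tmem44 (edgeR), and in the fit of TGH and TGL alone it was 0.0601 for Srgap2 and 0.0755 for Prmt3. Of the runs in this paragraph none had all its members moving in 1 direction.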

How the data were processed

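Left ventricle RNA of 10 mouse libraries (4 NTG, 3 TGL and 3 TGH) was sequenced from TruSeq RNA libraries, per the labels' protocols. The deposited table holds whole-number read counts per gene, not normalized. Per the submitters' processing notes, the tools were bcl2fastq 1.8.4, Trim Galore 0.4.0, Novoalign, SAMtools and DESeq2 1.18.1 with build mm10/GRCm38. The read counter, its annotation and its strand setting were not given in the sources used here, so reads of overlapping genes on opposite strands cannot be told apart. Total counts were 7076319 to 10896535 per library. Of 21222 genes, 1324 carry no symbol (0.777% of counts), and 21 symbols that had become dates were restored. Per-sample columns not used numbered 0.

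The counts were tested with edgeR 4.0.16 (R 4.3.3, limma 3.58.1): filterByExpr by group, TMM, and a quasi-likelihood fit of all 10 libraries in 3 groups, with the contrast TGH minus TGL. Genes with Benjamini-Hochberg adjusted p under 0.05 over all 14511 tested genes were called. The common biological coefficient of variation was 13.9%. The standard error is the log2 fold change divided by the root of the F statistic. The steps were tested on simulated data with 200 genes changed. Named genes were a fixed set of Nrf2 targets and heart genes, the 12 largest rises and falls among called genes with official symbols, a mean of at least 1 CPM and groups that did not overlap. They also held up to 5 genes in which TGL lay above or below both other groups, up to 4 called members of each list by adjusted p, the 5 called genes with the highest CPM, and runs of at least 4 neighbours. A result on 1 gene that this rule names is not reported here. The members and lists were chosen with earlier results of these data known. Shared words are the percent of a gene's 50-base words found in transcripts of other genes in GENCODE M21. Gene positions are those of the deposited table's build. Promoters are RefSeq's, of GRCm38.p6. Intervals for groups of 1 to 3 counts are exact (scipy 1.17.1). Alternatives were DESeq2 1.42.0, RLE scaling, other low-count filters, TGH and TGL alone, a replicate block, each library left out, TGL 2 and TGH 2 or NTG 2 and TGL 2 left out, and stricter thresholds. Python 3.11.15, pandas 2.3.3 and matplotlib 3.10.9 were used.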

Additional observations from a re-analysis of the deposited data

Results flagged for a closer look

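In the 4 NTG libraries, 52 of the genes above were checked for a library far from the rest by Dixon's gap test, and 6 had one. Chance flags about 1 in 20 groups. NTG 2 was far above the other 3 NTG libraries in Myh6 (28175 CPM), Myl1 (67.0 CPM), Nppb (629 CPM) and Poln (5.98 CPM). NTG 3 was far above the others in Cpn2 (3.66 CPM) and, with 1 count, in Ly6g (0.114 CPM). The NTG libraries enter the comparison of TGH with TGL only through the shared low-count filter, scaling and estimate of the spread. With TGH and TGL fitted alone the adjusted p of edgeR was 0.00553 for Myl1, 0.00178 for Cpn2, 0.00504 for Ly6g, 0.018 for Myh6 and 0.0141 for Poln, all under 0.05. Groups of 3 libraries were not checked in this way.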

How the results depend on the processing

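With 1 library left out, 730 to 1599 genes were called, 456 to 893 higher and 274 to 706 lower in TGH. Without TGL 2 and TGH 2 together there were 770 (453 higher, 317 lower), of which 679 were also among the 1399. An adjusted p under 0.01 left 573 (359 and 214), and a minimum of 1.5-fold left 860 (529 and 331), both subsets by construction. The other alternatives stayed within 1.5 times the 1399 calls: DESeq2 made 1489, RLE scaling 1407, no filter 1274, a minimum of 1 CPM in 3 libraries 1399, TGH and TGL alone 1145, and NTG 2 and TGL 2 left out 1266. With the replicate number as a block there were 1277, 1149 of them shared. The labels do not say that the numbers pair libraries, and pairing was not shown. Deviations from the group means correlated at 0.150, 0.0625 and 0.335 for numbers 0, 1 and 2, and 0.335 was the highest value of any combination. TGL 0 and TGL 1 each correlated best with a TGH library of another number, but TGL 0 only at 0.152. With 3 libraries a group these values cannot exclude pairing. Of 182 named genes, 89 kept direction and side of the threshold under all 20 alternatives, and 0 called genes changed sign. Without TGH 1, 54 of them lost the call. The share of genes that rose with the promoter motif was 18.4 to 21.3%. Depth limits genes near 3 counts a library. In all alternatives the cause of lost calls was not tested.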
